A study of Homo sapiens with 15 samples.

Results

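The genes described here encode proteins of the mitochondrial ribosome and were followed by RNA-seq in Caco-2 cells, a human colorectal carcinoma line that forms a monolayer resembling the intestinal lining. They were chosen as protein-coding genes whose symbol starts with MRPL or MRPS and a number and whose mean over the 15 libraries was at least 10 CPM (counts scaled to a common library total). Of 78 such protein-coding genes, 68 met that level, 44 named MRPL for the large subunit and 24 named MRPS for the small subunit, out of 69215 genes listed. Monolayers of the same line were left unexposed (control), or were given polysorbate 20 (PS20) or polysorbate 80 (PS80) at 0.05% for 24 h, and each of the 3 groups had 5 libraries from poly(A)-selected RNA. Both agents are food emulsifiers built on polyoxyethylene sorbitan, PS20 carrying mainly laurate and PS80 mainly oleate. The labels do not say whether the 5 libraries of a group came from separate cultures, so p-values measure the spread between these libraries, which may be technical.

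The mitochondrial ribosome translates the few messages of the mitochondrial genome, which encode core subunits of the respiratory chain and of ATP synthase. Its RNAs are made inside the organelle, whereas all of its proteins are encoded in the nucleus, translated in the cytosol and imported. Some of these proteins descend from bacterial ribosomal proteins and others occur only in mitochondria. Their genes are known for compact promoters without a TATA box, often with binding sites for ETS-family factors such as the GA-binding protein.

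Promoters of 4 genes are shown first because they cover the range of responses described below: MRPS6 and MRPL54 fell most after PS20, and MRPL58 and MRPS23 were higher after either emulsifier. The sequences are from RefSeq (GRCh38.p14), upstream of the annotated start, 5′ to 3′ on the gene's own strand. Bases inside annotated exons were left out except where needed to complete a motif, and capitals mark the ETS motif CCGGAAG on either strand. The MRPS6 stretch holds no annotated exon base but lies inside the counted gene, which starts at chr21:34073224, upstream of the RefSeq start.
MRPS6, chr21:34073378-34073522, plus strand, positions -200 to -56: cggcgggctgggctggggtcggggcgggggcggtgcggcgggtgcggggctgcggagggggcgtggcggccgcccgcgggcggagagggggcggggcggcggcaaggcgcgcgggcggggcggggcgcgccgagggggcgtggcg
MRPL54, chr19:3762482-3762667, plus strand, positions -200 to -15: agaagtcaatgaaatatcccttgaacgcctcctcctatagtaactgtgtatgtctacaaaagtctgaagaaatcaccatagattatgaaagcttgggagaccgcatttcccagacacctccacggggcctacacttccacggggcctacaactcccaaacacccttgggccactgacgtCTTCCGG
MRPL58, chr17:75012470-75012669, plus strand, positions -200 to -1: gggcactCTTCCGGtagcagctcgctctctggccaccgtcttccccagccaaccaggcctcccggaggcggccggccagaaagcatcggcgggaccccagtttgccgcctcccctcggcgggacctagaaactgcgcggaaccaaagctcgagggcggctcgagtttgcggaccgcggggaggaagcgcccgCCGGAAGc
MRPS23, chr17:57850052-57850244, minus strand, positions -200 to -8: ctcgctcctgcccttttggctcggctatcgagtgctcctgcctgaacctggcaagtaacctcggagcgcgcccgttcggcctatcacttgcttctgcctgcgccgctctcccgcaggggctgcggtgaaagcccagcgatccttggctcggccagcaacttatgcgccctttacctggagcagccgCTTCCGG

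A promoter window, from 250 bases before to 50 after the start, was matched for 61 of the 68 genes and for 9436 protein-coding genes tested. The ETS motif CCGGAAG, searched on both strands, lay in 27 of the 61 windows (44.3%) and in 19.8% of all 9436. The YY1 motif AAGATGGCG lay in 9 (14.8%), against 4.09% of all. The NRF1 motif with 1 free central base was held by 7 (11.5%), against 11.99%, and the E-box CACGTG by 5 (8.20%), against 10.1%. No window held the ATF4 element TGATGCAA, which 0.456% of all held, and no TATAAA was present in the 50 bases before the start, against 1.70% of all. These matches describe letters and not occupied sites. The genes with the ETS motif had a median log2 change of -0.06 after PS20 and -0.01 after PS80, and those without it had -0.03 and 0.00.

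**Figure D1:**
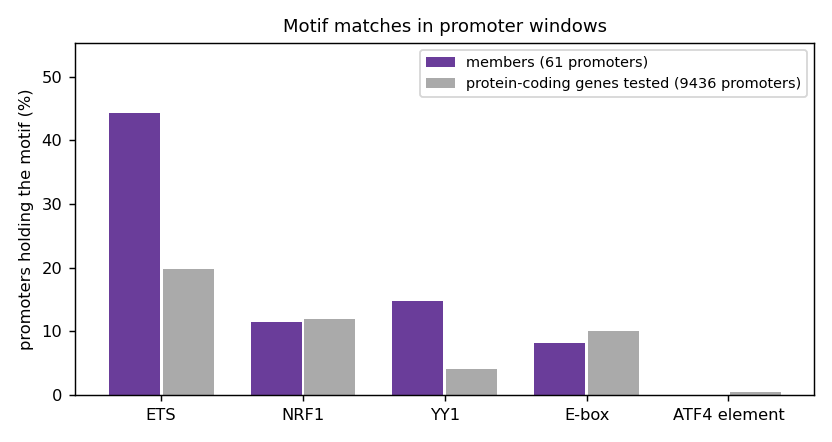
Share of promoter windows (250 bases before to 50 after the start) (vertical axis, percent) holding each motif on either strand, for the 61 matched mitochondrial ribosomal protein genes and for 9436 protein-coding genes tested. The ETS bar stands at 44.3% for the ribosomal protein genes and 19.8% for all, while the NRF1 bars are at 11.5% and 11.99%.

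Library totals ran from 4183096 to 42271053 counts on genes. Every one of the 68 genes was counted in all 15 libraries, with 38 as the lowest count in a library. PS80 replicate 2, the deepest library, stood apart from the other PS80 libraries. Its counts differed from theirs by a chi-square of 14.9 to 40.3 per gene, against 2.68 to 9.50 among the other 4. This measure is taken on raw counts and grows with depth, and the part of depth in it was not tested. The other 4 PS80 libraries were counted with featureCounts 2.0.3 and all remaining libraries with 2.0.0. In those 4 the program version and PS80 cannot be told apart. Replicates 1 and 2 were also compared apart from replicates 3 to 5. Of the epithelial markers, KRT20 was at 0, and the summed level of the 9 markers was 9720 to 11299 CPM in control, 8215 to 8837 in PS20 and 9717 to 10337 in PS80. Of the 8 epithelial markers tested, 3 were higher and 3 lower with PS20 (75%, beside 48.2% of all genes tested), at a median log2 change of 0.01. KRT8 and KRT18 fell by 0.73 and 0.61 on the log2 scale, and the highest of the 8 stood at 0.37. The part of these markers in the results below was not tested. The 13 fibroblast, endothelial and blood cell markers, HBB at 0 among them, summed to 154 to 173, 142 to 164 and 135 to 183 CPM.

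As a group, the 68 genes took less than 1% of all counts in every library. Their share was 0.466% to 0.490% in the control libraries, 0.442% to 0.472% in PS20 and 0.451% to 0.490% in PS80. In 4 of 5 PS20 libraries it lay below every control library, and PS20 replicate 5, at 0.472%, was above only control replicate 1, at 0.466%. The PS80 range overlapped both. The 82 genes for cytosolic ribosomal proteins took 4.75% to 5.32%, 6.09% to 6.59% and 5.01% to 5.74%, and PS20 lay above control without overlap. Of the 74 cytosolic genes tested, 61 rose and none fell after PS20, and 32 rose and none fell after PS80, with median log2 changes of 0.34 and 0.14 (edgeR, adjusted p under 0.05). That is 82.4% and 43.2% higher, beside 24.3% and 17.2% of all genes tested. In bulk RNA, a change in the RNA of each cell and a change in the mix of cells cannot be told apart.

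**Figure D2:**
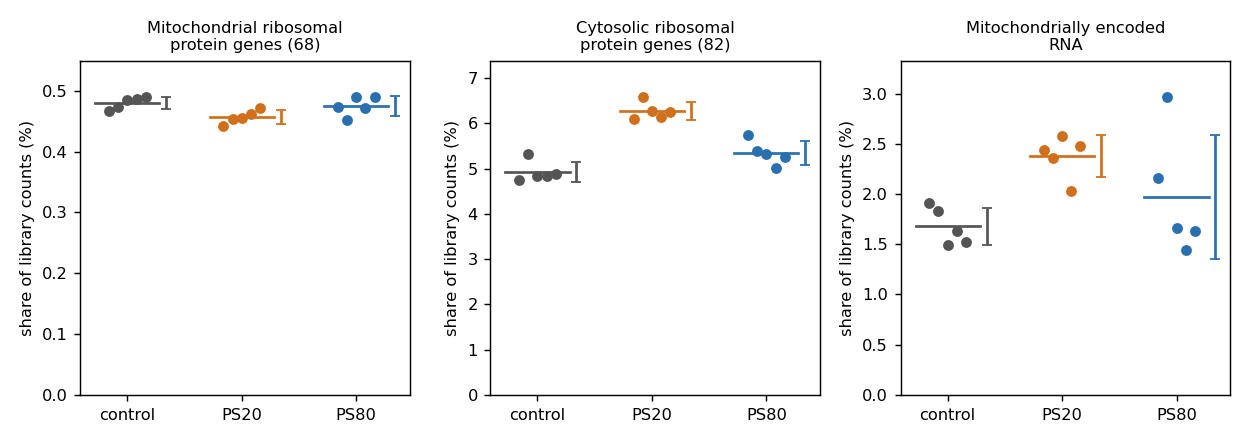
Share of each library's counts (vertical axis, percent) taken by the 68 mitochondrial ribosomal protein genes, the 82 cytosolic ribosomal protein genes and mitochondrially encoded RNA; points are libraries, horizontal lines are group means and the bars beside them are 1 SD (n = 5). The first panel spans 0.442% to 0.490%, with 4 of 5 PS20 points below all control points, and in the middle panel the PS20 points (6.09% to 6.59%) lie above all control points.

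Levels of single genes spanned a wide range in control cells, from 10.6 to 221 CPM with a median of 54.2. Per kilobase of exon, as CPM divided by length (RPKM), the highest were MRPL51 at 143, MRPS35 at 115, MRPL11 at 84.1 and MRPS16 at 77.7. The lowest were MRPS25 at 0.907, MRPS18C at 2.19, MRPS22 at 3.32 and MRPS11 at 3.43. This order depends on the length used: per kilobase of the principal transcript, MRPS22 stood at 35.2 and MRPS25 at 3.62. Replicates varied little, with a median coefficient of variation of 7.02% in control, 6.84% in PS20 and 6.68% in PS80.

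Just inside the limit of 10 CPM were MRPS21 at 10.7, MRPS18C at 11.0 and MRPS36 at 12.7 as means over all libraries. Just outside were MRPL2 at 9.35, MRPS17 at 8.38 and MRPS28 at 5.13. Of the genes further below, MRPL53 was listed at 0, and 99.4% of its exonic bases are shared with another gene. MRPL45 stood at 0.0308 CPM while the 2 pseudogenes named after it summed to 0.849 CPM. MRPL38 (0.658 CPM), MRPS24 (0.453 CPM) and MRPS18B (0.400 CPM) shared 45.1%, 23.2% and 0% of their exonic bases. The part of the counting in these low values was not tested, and these 5 genes were picked after their values were seen. MRPS36 is named as a ribosomal protein but is now known as a subunit of the 2-oxoglutarate dehydrogenase complex. MRPS30 and MRPS18A, in spite of their names, sit in the large subunit and are counted there.

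After PS20, MRPS6, MRPL54 and MRPL27 fell most and MRPL58 and MRPL21 rose most, all by less than 2-fold. Of the 68, 7 rose and 18 fell, 36.8% in all, beside 48.2% of all 12769 genes tested (24.3% higher and 23.9% lower). With no filter on low counts, 3 of the 68 were higher and 15 lower (26.5%, beside 18.7% of the 32308 genes tested there). In that fit 6026 genes passed in all, against 6150 with the filter. The 18.7% is thus lower mainly because more genes were tested, and the 2 shares are not alike. With the filter, the median log2 change of the 68 was -0.05, against 0.01 for all genes tested. Groups did not overlap for 5 genes that were higher (all genes 16.2%) and for 14 that were lower (all genes 16.3%). The 95% interval of the change lay within 1.2-fold of no change for 29 of the 68 (42.6%), against 18.1% of all genes tested. Intervals of the 68, chosen at 10 CPM or more, were also narrower. Their median half-width was 0.147 on the log2 scale, against 0.196 for all genes tested. The part of this width in the shares was not tested.

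Among small subunit proteins with a bacterial homologue, MRPS6 fell most after PS20. It is encoded at chr21:34073224-34143034. Its control libraries held 56.6, 61.8, 76.6, 67.6 and 70.5 CPM, its PS20 libraries 32.2, 40.9, 41.9, 38.1 and 39.9, and its PS80 libraries 49.2, 49.5, 62.7, 58.4 and 60.0. Every PS20 library was below every control and every PS80 library, while PS80 and control overlapped. The log2 change was -0.78 ± 0.09 (SE, n = 5; edgeR adjusted p = 1.1e-07) for PS20 and -0.26 ± 0.09 (edgeR adjusted p = 0.022) for PS80. MRPS7, a protein of the small subunit's head, fell by 0.30 on the log2 scale with PS20 (edgeR adjusted p = 0.00013). MRPS15 rose by 0.21 (edgeR adjusted p = 0.010). Of the 12 genes in this class, 1 rose and 3 fell with PS20 (33.3%), and 2 rose and 3 fell with PS80 (41.7%), beside 48.2% and 33.2% of all genes tested.

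Among large subunit proteins with a bacterial homologue, MRPL27 fell with both emulsifiers. Its bacterial relative reaches toward the peptidyl transferase centre, and the human gene lies at chr17:50367857-50373207. Control libraries held 109, 116, 117, 127 and 122 CPM, PS20 libraries 70.5, 71.8, 74.1, 75.2 and 81.1, and PS80 libraries 90.8, 95.1, 90.9, 91.1 and 92.9. The 3 groups did not overlap, with PS20 lowest and PS80 between. The log2 change was -0.67 ± 0.06 (edgeR adjusted p = 7.9e-10) with PS20 and -0.36 ± 0.06 (edgeR adjusted p = 2.4e-05) with PS80. MRPL35 fell from 45.7 ± 1.9 to 33.1 ± 3.0 CPM with PS20 (SD, n = 5) and to 38.7 ± 2.8 with PS80, and both PS20 and PS80 libraries lay below all control libraries. MRPL16, a protein of the region that binds transfer RNA, fell by 0.28 on the log2 scale with PS20 (edgeR adjusted p = 0.00066) and stood at -0.01 with PS80.

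MRPL21 and MRPL10 moved the other way in this class. MRPL21 rose with PS20 from 78.5, 79.5, 90.5, 83.9 and 91.4 CPM to 96.1, 113, 103, 105 and 112, a log2 change of 0.32 ± 0.07 (edgeR adjusted p = 0.00024), and its PS80 libraries held 107, 90.1, 106, 94.9 and 103 CPM. MRPL10, which anchors the stalk that carries MRPL12, rose by 0.22 with PS20 (edgeR adjusted p = 0.0071). Of the 29 genes in this class, 2 rose and 8 fell with PS20, and 8 rose and 2 fell with PS80. That is 6.90% higher and 27.6% lower with PS20, beside 24.3% and 23.9% of all genes tested, and 27.6% higher and 6.90% lower with PS80, beside 17.2% and 16%.

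Among mitochondria-specific proteins of the large subunit, MRPL54 fell with both emulsifiers. It lies at chr19:3762682-3768575. Its control libraries held 20.6, 21.1, 23.6, 22.2 and 23.8 CPM, its PS20 libraries 16.4, 12.4, 14.1, 11.5 and 15.2, and its PS80 libraries 14.8, 12.9, 14.9, 16.1 and 15.7. All 10 exposed libraries lay below all 5 control libraries, and the emulsifiers overlapped with each other. The log2 change was -0.68 ± 0.10 (edgeR adjusted p = 6.4e-06) with PS20 and -0.59 ± 0.10 (edgeR adjusted p = 7.2e-05) with PS80. MRPL44, which has a fold like that of ribonuclease III, fell from 130.8 ± 8.1 to 98.2 ± 2.1 CPM with PS20 (SD, n = 5), and to 115.5 ± 5.9 with PS80. MRPL51 and MRPL43 fell by 0.30 and 0.29 on the log2 scale with PS20.

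MRPL58, a peptidyl-tRNA hydrolase that belongs to the large subunit, rose with both. Control libraries held 19.7, 24.4, 27.9, 24.1 and 19.7 CPM, PS20 libraries 26.5, 28.8, 29.1, 31.9 and 32.3, and PS80 libraries 29.3, 24.6, 31.1, 30.6 and 30.1. The control library at 27.9 overlapped both exposed groups. The log2 change was 0.36 ± 0.10 with PS20 (edgeR adjusted p = 0.0031) and 0.32 ± 0.09 with PS80 (edgeR adjusted p = 0.011). MRPL48 rose by 0.18 with PS20. Of the 17 genes in this class, 2 rose and 5 fell with PS20 (41.2%), and 2 rose and 4 fell with PS80 (35.3%), beside 48.2% and 33.2% of all genes tested.

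Among the 9 mitochondria-specific small subunit genes, MRPS34 fell with PS20, from 69.2, 66.2, 78.3, 67.8 and 73.9 CPM to 50.6, 49.96, 53.3, 51.7 and 54.6. Its PS80 libraries held 61.8, 72.0, 69.5, 63.7 and 69.4 CPM and overlapped the control. The log2 change was -0.44 ± 0.06 (edgeR adjusted p = 3.8e-06) with PS20 and -0.07 ± 0.06 with PS80, which did not pass. MRPS23 and MRPS27, the latter with pentatricopeptide repeats, rose by 0.17 and 0.15 with PS20 and by 0.25 and 0.21 with PS80. Of the 9 genes, 2 rose and 1 fell with PS20, and 3 rose and none fell with PS80 (33.3% each, beside 48.2% and 33.2% of all genes tested).

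**Figure D3:**
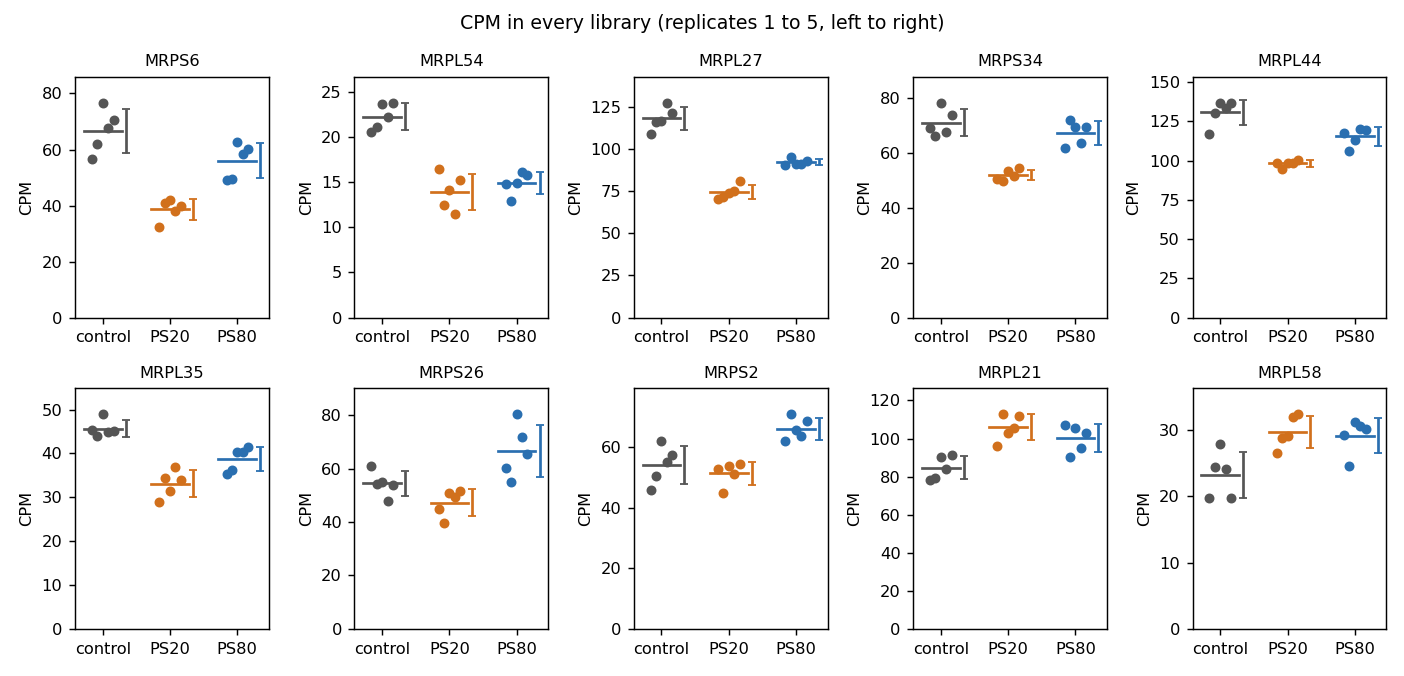
CPM (vertical axis) of 10 genes in every library, replicates 1 to 5 from left to right in each group; horizontal lines are group means and the bars beside them 1 SD (n = 5). MRPS6, MRPL27 and MRPS34 have all PS20 points below the PS80 points, and MRPL54 has both exposed groups below control.

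PS80 against control gave 15 genes higher and 9 lower, 35.3% of the 68, beside 33.2% of all genes tested (17.2% higher and 16% lower). With no filter on low counts, 14 were higher and 4 lower (26.5%, beside 12.1% of the 32308 genes tested there). In that fit 3915 genes passed in all, against 4243 with the filter, so the 12.1% is lower mainly because more genes were tested. With the filter, the median log2 change of the 68 was -0.01, against 0.00 for all. Groups did not overlap for 7 higher genes (all genes 10.3%) and 3 lower (all genes 9.30%). Of the 68 intervals, 32 lay within 1.2-fold of no change (47.1%, against 25.7%). Here too the intervals of the 68 were narrower, with a median half-width of 0.144, against 0.191 for all genes tested. Besides MRPL54 and MRPL27, the genes that fell were MRPS11, MRPS6, MRPL35, MRPL51, MRPL49, MRPS7 and MRPL44, at log2 changes from -0.27 to -0.18. The 10 highest were MRPL12, MRPL58, MRPL42, MRPS2, MRPS26, MRPL14, MRPL36, MRPS23, MRPL21 and MRPL17, from 0.35 to 0.23, and the other 5 that rose, MRPL30, MRPL24, MRPS27, MRPS12 and MRPL4, were at 0.17 to 0.22. With the replicate number as a block, MRPL33 also passed, at -0.16 (edgeR adjusted p = 0.049).

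MRPS2, a small subunit protein conserved from bacteria, rose with PS80. Control libraries held 45.9, 50.3, 61.8, 55.0 and 57.2 CPM, PS20 libraries 52.6, 44.8, 53.6, 51.2 and 54.3, and PS80 libraries 61.8, 70.8, 65.4, 63.5 and 68.5. The highest control library was level with the lowest PS80 library at this rounding. The log2 change was 0.29 ± 0.07 (edgeR adjusted p = 0.0031). MRPL42 rose from 79.3 ± 8.5 to 98.4 ± 6.0 CPM (SD, n = 5; log2 change 0.31 ± 0.07, edgeR adjusted p = 0.0011) and MRPL14, which forms a bridge between the subunits, from 64.4 ± 6.5 to 78.1 ± 4.5 CPM.

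MRPS26 depended on the replicates. Control libraries held 61.1, 54.2, 55.2, 47.9 and 54.0 CPM, and PS80 libraries 60.3, 55.1, 80.3, 71.7 and 65.6. PS80 replicates 1 and 2 lay inside the control range and replicates 3 to 5 above it. The log2 change with PS80 was 0.29 over all, 0.01 in replicates 1 and 2 and 0.47 in replicates 3 to 5. Without control replicate 4 it was 0.24 and without PS80 replicate 3 it was 0.22, with edgeR adjusted p of 0.070 and 0.057.

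Several PS80 calls did not pass when a single library was left out. Those fits have fewer libraries, so a call near the threshold can be lost with little change in its estimate. MRPS6 was at -0.21 without PS80 replicate 2 (edgeR adjusted p = 0.068) and between -0.23 and -0.22 without PS80 replicate 1, control replicate 3 or control replicate 5, none of which passed. MRPS11 did not pass without PS80 replicate 2, 3 or 5 or control replicate 2, 4 or 5, and its log2 change without control replicate 2 was -0.17. MRPL12, the stalk protein, was at 0.27 without control replicate 1, 0.33 without control replicate 4 and 0.28 without PS80 replicate 5, and did not pass. MRPL36 likewise did not pass without control replicate 1 or 4 or PS80 replicate 1 or 3, at 0.20 to 0.27. MRPL4 was lost without PS80 replicate 1, 2 or 5 or any one control library, at 0.15 to 0.18. MRPS12 was lost without control replicate 1, 2 or 3 or PS80 replicate 3, 4 or 5, at 0.16 to 0.20, and MRPL24 without control replicate 1, 3 or 4 or PS80 replicate 1, at 0.18 to 0.21. With MRPS26, these were 8 of the 24 PS80 calls, and the other 16 passed whichever library was left out.

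Of the PS20 calls, MRPL48 was lost without control replicate 1 (0.13) or PS20 replicate 3 (0.17). MRPS23 was lost without control replicate 1 or 3 or PS20 replicate 1 or 4, at 0.13 to 0.15, and MRPS27 without control replicate 3 or 5 or PS20 replicate 1, at 0.13 to 0.14. MRPS36 was lost in 9 of the 10 fits that left out a library (-0.29 to -0.23), all but the one without control replicate 3, and MRPL15 in 7 (-0.18 to -0.15), without control replicate 2, 4 or 5 or PS20 replicate 1, 2, 3 or 4. MRPL33 was lost without control replicate 4 or 5 or PS20 replicate 1, 2 or 3, at -0.21 to -0.17. Without control replicate 4, MRPL23 (-0.18), MRPS14 (-0.19) and MRPL50 were lost, MRPL50 also without PS20 replicate 1 (both -0.17). These were 9 of the 25 PS20 calls, and 16 passed whichever library was left out.

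**Figure D4:**
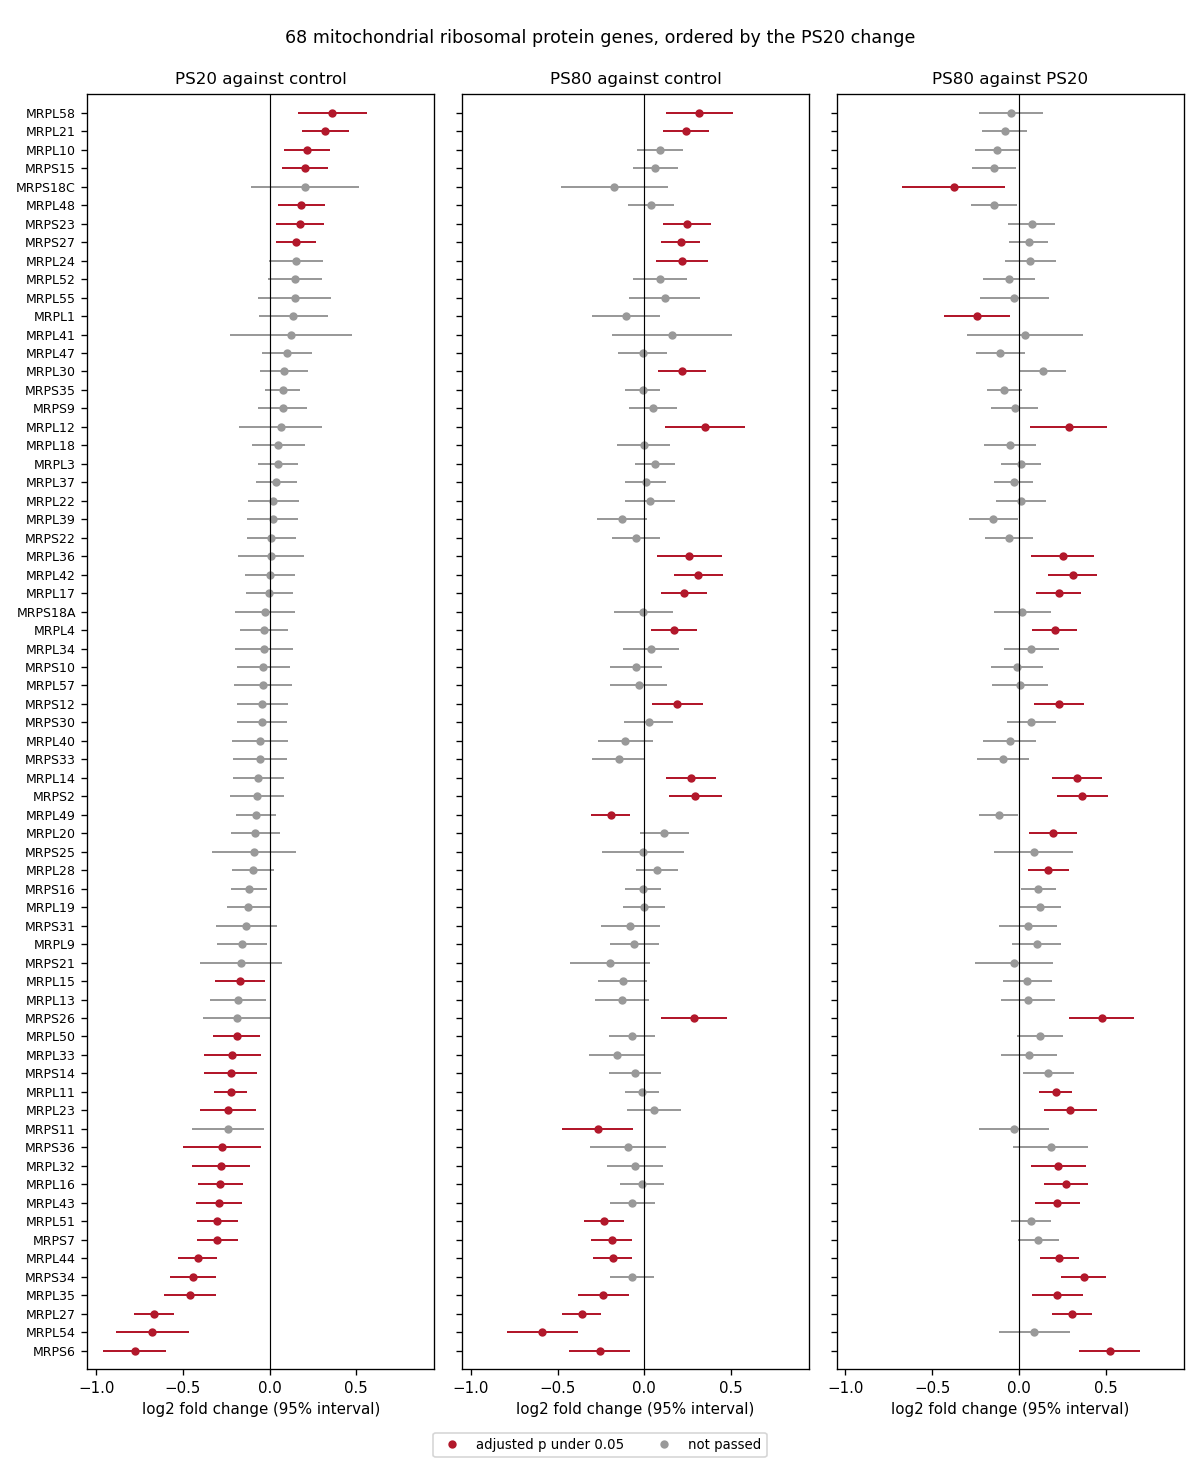
Log2 fold change (horizontal axis) with its 95% interval for each of the 68 genes in 3 comparisons, ordered by the PS20 change; red marks an edgeR adjusted p under 0.05. The PS20 panel runs from -0.78 at MRPS6 to 0.36 at MRPL58, and in the PS80 against PS20 panel 21 of 23 red points lie to the right of 0.

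The emulsifiers, which differ in their main fatty acid, were compared directly at the same dose and time, as 1 pair of compounds. Of the 68 genes, 21 were higher and 2 lower with PS80 than with PS20, 33.8%, while 35.2% of all genes tested differed, 18.0% higher and 17.2% lower. With no filter on low counts, 21 were higher and 0 lower (30.9%, beside 13.1% of the 32308 genes tested there). In that fit 4221 genes passed in all, against 4501 with the filter, so the 13.1% is lower mainly because more genes were tested. With the replicate number as a block, 25 were higher and 4 lower (42.6%, beside 42.7% of all genes tested). With the filter, the median difference of the 68 was 0.07 on the log2 scale, against -0.00 for all. In 14 genes all PS80 libraries lay above all PS20 libraries (all genes 11.7%), and in none did they lie below (all genes 11%). Cytosolic ribosomal protein genes went the other way in this comparison, with 1 of 74 higher and 52 lower and a median of -0.21. Both directions rest on the same 10 libraries.

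MRPS6 and MRPS26 differed most between the emulsifiers. PS80 exceeded PS20 by 0.52 ± 0.09 for MRPS6 (95% interval 0.34 to 0.70; edgeR adjusted p = 4.9e-05) and by 0.48 ± 0.09 for MRPS26 (0.29 to 0.66; edgeR adjusted p = 0.00030), on the log2 scale. The PS20 libraries of MRPS26 held 44.8, 39.6, 50.8, 49.5 and 51.5 CPM, all below the PS80 libraries. MRPS34 followed at 0.37, MRPS2 at 0.37, MRPL14 at 0.33, MRPL42 at 0.31, MRPL27 at 0.31, MRPL23 at 0.29, MRPL12 at 0.29 and MRPL16 at 0.27. MRPL44 (0.23) and MRPL11 (0.21), the latter part of the site where translation factors bind, were also among the 10 smallest adjusted p. MRPL12 did not pass without any one of PS20 replicates 1, 2 or 3 or PS80 replicates 2, 3 or 5, at 0.22 to 0.30.

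For MRPL54 and MRPL58 no difference between the emulsifiers passed the test. The interval of the log2 difference bounds it rather than showing that the agents act alike: MRPL54 stood at 0.09 (95% interval -0.12 to 0.30) and MRPL58 at -0.04 (95% interval -0.23 to 0.14). For 36 of the 68 genes (52.9%) the interval lay within 1.2-fold, against 24.3% of all genes. The median half-width was 0.142 for the 68, against 0.187 for all genes, and its part in these shares was not tested. The 2 genes lower with PS80 were MRPS18C at -0.38 and MRPL1 at -0.24, at edgeR adjusted p of 0.043 and 0.044. Without PS80 replicate 2 they stood at -0.25 and -0.14 and did not pass. MRPS18C also did not pass without PS20 replicate 2, 3, 4 or 5 or PS80 replicate 1 or 4 (-0.38 to -0.31), nor did MRPL1 without PS20 replicate 1, 2, 4 or 5 or PS80 replicate 3 or 4 (-0.25 to -0.22). MRPL20, MRPL28, MRPL32, MRPL35 and MRPL36 were each lost without 2 to 4 of the single libraries, at 0.13 to 0.23, and 15 of the 23 calls between the emulsifiers passed whichever library was left out.

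**Figure D5:**
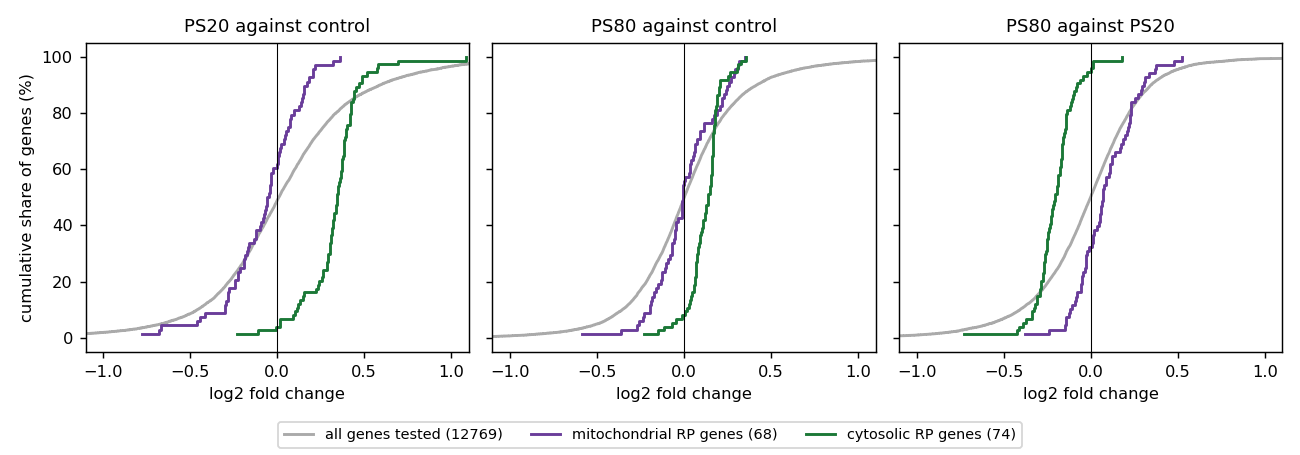
Cumulative share of genes (vertical axis, percent) by log2 fold change (horizontal axis) for all 12769 genes tested, the 68 mitochondrial and the 74 cytosolic ribosomal protein genes, in 3 comparisons. The mitochondrial curve has its median at -0.05, -0.01 and 0.07, and the cytosolic curve at 0.34, 0.14 and -0.21.

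The sign of every called change was the same in replicates 1 and 2 as in replicates 3 to 5, for 25 of 25 genes with PS20, 24 of 24 with PS80 and 23 of 23 between the emulsifiers. These sets were part of the data that gave the calls. With a fold above 1.2 required as well, 14, 9 and 11 of the 68 passed with PS20, with PS80 and between the emulsifiers, beside 37.4%, 23.9% and 24.6% of all genes tested. In replicates 1 and 2 alone, 12 genes passed with PS20 (17.6%, beside 25.6% of the 12903 genes tested there), 3 with PS80 (4.41%, beside 17.2%) and 7 between the emulsifiers (10.3%, beside 12.5%). None of the 10 genes that fell most with PS20 lost its call under any of 19 other settings or left-out libraries.

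Subunits of the mitochondrial ribosome under other names were tested as well. PTCD3, a pentatricopeptide repeat protein at the messenger entrance of the small subunit, held 194.7, 204.6, 203.4, 214.2 and 202.8 CPM in control and 151.4, 145.4, 145.2, 149.1 and 140.04 in PS20. All PS20 libraries lay below control, at a log2 change of -0.48 (edgeR adjusted p = 1.1e-08). CHCHD1 fell from 45.6 ± 4.8 to 28 ± 2.8 CPM (-0.69) and GADD45GIP1 by 0.29 on the log2 scale. DAP3, a GTP-binding protein of the small subunit, rose by 0.38 with PS20 and 0.30 with PS80 and lay above all control libraries in both. AURKAIP1 stood at -0.03 and 0.06 and did not pass. Of these 5 genes, 1 rose and 3 fell with PS20, and with PS80 only DAP3 passed (80% and 20%, beside 48.2% and 33.2% of all genes tested).

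Of 24 assembly factors tested out of 26, 4 rose and 7 fell with PS20, and 3 rose and 3 fell with PS80. RCC1L, which takes part in processing the mitochondrial ribosomal RNA, fell from 107.1 ± 4.3 to 72.5 ± 3.4 CPM with PS20 and to 78.5 ± 6.0 with PS80 (log2 change -0.56 and -0.45). DDX28, a helicase of large subunit assembly, rose by 0.35 with PS20. Of 15 translation factors, 5 rose and 3 fell with PS20, and 3 rose and 1 fell with PS80; LRPPRC, which stabilises mitochondrial messages, rose by 0.20 and 0.32. Of 12 genes for mitochondrial transcription and RNA processing, none rose and 4 fell with PS20, led by MTERF1 at -0.46. With PS80, 1 rose and 2 fell, TEFM at -0.53 among them. The shares that passed with PS20 were 45.8% of the assembly factors, 53.3% of the translation factors and 33.3% of the transcription and processing genes, beside 48.2% of all genes tested, and with PS80 25%, 26.7% and 25%, beside 33.2%.

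Of 9 nuclear regulators tested, 3 rose and none fell with PS20, and 3 rose and 1 fell with PS80. MYC rose from 51.6 ± 11.2 to 116.2 ± 12.4 CPM with PS20 and 126.8 ± 21.3 with PS80, and PPARGC1B, a coactivator of respiratory genes, by 0.62 and 0.81 on the log2 scale. Among the 15 mitochondrially encoded RNAs, 4 rose and none fell with PS20, with MT-CO1 at 0.74, and 2 fell and none rose with PS80. The shares that passed were 33.3% of the regulators and 26.7% of the mitochondrially encoded RNAs with PS20 (all genes 48.2%), and 44.4% and 13.3% with PS80 (all genes 33.2%). PS80 replicate 2 had 2.97% of its counts on mitochondrially encoded RNA, while the other PS80 libraries had 1.45% to 2.16%, control 1.497% to 1.91% and PS20 2.03% to 2.58%. Without that library, none of the 15 rose and 2 fell with PS80, MT-CO2 at -0.33 and MT-CYB at -0.26, as against -0.33 and -0.28 with it. The ribosomal RNAs MT-RNR1 and MT-RNR2 did not pass either way, and stood at 1.91 and 0.94 with that library and at 0.39 and 0.44 without it. Poly(A) selection captures these RNAs unevenly.

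Exons shared with other genes limit some of these values. Counting used no strand, so genes on the opposite strand count among them as well as genes on the same strand. Of the 68 genes, 35 shared no exonic base with another gene and 9 shared over 25%, namely MRPL51, MRPS34, MRPS22, MRPL43, MRPL9, MRPS18A, MRPL12, MRPS25 and MRPS18C. MRPL12 shared most, 69.5%, with a gene on the same strand. MRPS34 shares 31.2% of its exonic bases with EME2 on the opposite strand, and EME2 stood at 0.08 with PS20. MRPL51 shares 27.6% with NCAPD2, which stood at -0.33. Reads of named pseudogenes came to more than 5% of the gene's own in 0 of the 68. The minimum mapping quality of 10 leaves out reads that fit a gene and its copy equally well. How many reads the genes lost in this way is not known.

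Head-to-head neighbours were frequent: 18 of the 68 genes (26.5%) had a protein-coding gene on the other strand starting within 1000 bp, against 12.8% of 11517 protein-coding genes tested. MRPL27 and EME1 start 13 bp apart, and EME1 rose by 0.34 with PS20 (edgeR adjusted p = 0.0071) where MRPL27 fell. MRPL21 and IGHMBP2 start 28 bp apart, and IGHMBP2 rose by 0.33 (edgeR adjusted p = 0.0013), as did MRPL21. FAU, 6 bp from MRPL49, rose by 0.36, while MRPL49 was at -0.08 and did not pass. These neighbours were picked after their values were seen.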

How the data were processed

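Counts of reads per gene were deposited by the authors for each library, made with featureCounts 2.0.0 or 2.0.3 on the GENCODE 42 annotation with a minimum mapping quality of 10 and no strand option, per the file headers. Reads were aligned with STAR 2.7.9a to GRCh38, per the submitters' processing notes. The genes and lists were chosen with earlier results of these data known. Symbols were matched for 62672 of 69215 genes (90.5%), and the protein-coding type came from GENCODE 29. CPM levels are scaled by TMM library sizes (factors 0.978 to 1.02), and RPKM is computed from them. Genes were filtered with filterByExpr (minimum count 10, minimum total 15), leaving 12769. The test was edgeR 4.0.16 (R 4.3.3), quasi-likelihood with robust shrinkage, 1 term per group over 15 libraries, Benjamini-Hochberg adjusted over all 12769 genes at 0.05. The robust setting was chosen after the data were seen. The biological coefficient of variation was 8.91%. In simulated data for PS20 against control on 12650 genes, 100 genes were changed at each fold. Of these, 16% of 1.2-fold and 77% of 1.5-fold changes were recovered, with 6 false calls.

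Named genes were, for each comparison, up to 10 highest and 10 lowest among those that passed, the 10 smallest adjusted p between emulsifiers, the 4 highest and lowest by RPKM, the 3 nearest to the limit on either side, every subunit under another name, and up to 3 per pathway list. For PS80 against control, the correlation of same-numbered libraries' deviations from their group means was 0.102 to 0.304, above 0.1 for all 5. Yet PS80 replicates 1 and 5 correlated most with control replicates 2 and 4, so the numbers do not establish pairs. For PS20 against control the correlation was -0.026 to 0.248, with the same-numbered control highest for PS20 replicates 1, 2, 3 and 5. Between emulsifiers it was 0.074 to 0.290. The main test took no numbers as pairs. Alternatives were DESeq2 1.42.0, its size factors in edgeR, no low-count filter, 2 groups only, a replicate block, a term for replicate sets, each set alone and each library left out.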

Additional observations from a re-analysis of the deposited data

Results flagged for a closer look

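In 90 groups of 5 libraries tested for a library far from the others (30 named genes in 3 groups), 2 libraries stood out, and chance alone gives about 1 in 20. MRPL42 was highest in PS20 replicate 1, at 86.0 CPM against 78.9 in the next library. MRPL58 was lowest in PS80 replicate 2, at 24.6 CPM against 29.3 in the next. PS80 replicate 2 is also the deepest library and the one that stood apart in its counts. Without it MRPL58 rose by 0.38 on the log2 scale, against 0.32 with it.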

How the results depend on the processing

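The number of genes past the threshold stayed within 1.5 times the reported 25, 24 and 23 (PS20 against control, PS80 against control and PS80 against PS20) under all settings but these: in replicates 1 and 2 alone it was 12, 3 and 7, and with a fold above 1.2 required in addition it was 14, 9 and 11. Leaving out each library gave 19 to 26, 18 to 23 and 18 to 22. In those fits 43.4% to 46.9%, 27.7% to 32.1% and 29.7% to 34.1% of all genes tested passed. With the replicate block it was 30, 25 and 29 (higher and lower 7 and 23, 15 and 10, 25 and 4), and no reported call was lost. That was 44.1%, 36.8% and 42.6% of the 68, beside 53.8%, 40.6% and 42.7% of all genes tested. Whether the replicate numbers mark pairs is not known. Without the low-count filter it was 18, 18 and 21 (higher and lower 3 and 15, 14 and 4, 21 and 0). That was 26.5%, 26.5% and 30.9% of the 68, beside 18.7%, 12.1% and 13.1% of the 32308 genes tested there. These shares of all genes are lower mainly because more genes were tested, since 6026, 3915 and 4221 passed, against 6150, 4243 and 4501 with the filter. Median log2 changes ran from -0.07 to -0.04, -0.03 to 0.02 and 0.06 to 0.10. Of 17, 19 and 14 named changes, 11, 2 and 6 kept their call under every one of the 19 alternatives and 0 reversed. In replicates 1 and 2 alone, 6, 16 and 8 lost it, and there are fewer libraries in that fit. Changes of 1.2-fold were seldom recovered at this depth and spread in simulated data for PS20 against control (16%). There 100 of 12650 genes were changed at each fold, far fewer than passed in the data, so that rate need not hold for the 68. For 29, 32 and 36 of the 68 genes the interval of the change lay within 1.2-fold of no change. Genes that did not pass and whose interval reached beyond 1.2-fold may have changed by that much.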
